A study of Mus musculus with 16 samples.

Results

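The Notch ligands Dll1, Dll3, Jag1 and Jag2, the receptors Notch1 to Notch4 and the target genes Hes1 and Hey1 were followed in mouse embryonic stem cells leaving naive pluripotency. These 10 genes were found by symbol among the 27179 genes of the count table, and all 10 passed the filter on low counts with 14288 genes in all. The set was drawn up because Dll1 rises from no counts at 0 h, so Dll1 is described without a test and left out of every count of called genes. Those counts are over the other 9. Dll1 had 0 counts at 0 h in both serum/LIF+2i libraries and 1 count in each of the 2i/LIF libraries.

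The study measured polyadenylated RNA in bulk by stranded sequencing, with 2 libraries in each of 8 groups. Cells in serum and LIF were first adapted either to 2i/LIF, a serum-free medium, or to serum/LIF+2i, which contains 10% fetal bovine serum. LIF is a cytokine that sustains self-renewal, and 2i is the pair of inhibitors CHIR99021 (3 µM, against the kinase GSK3) and PD0325901 (1 µM, against MEK). All groups thus came from cells kept on gelatin with both inhibitors and LIF. Cells at 0 h were in that medium, and cells at 12, 24 and 40 h had been moved to serum-free N-2/B-27 medium without 2i and LIF. At every time a group is named for the medium its cells were in before that move. For cells from serum/LIF+2i the move also took away serum and changed the base medium, so these steps cannot be told apart from the loss of 2i and LIF. The protocol for serum/LIF+2i cells names 24 and 40 h alone, and the 12 h group of that medium was taken from the sample titles, so every 12 h value of serum/LIF+2i rests on those titles. The cell line is not given in the sources used here, and no mutation is named. The series is about nutrient supply and pluripotent state, and its design implies 3 kinds of comparison: each time against 0 h, the 2 media at each time, and the difference between the media in the change from 0 h. The labels do not say whether the libraries of a group came from separate cultures, so the p-values measure the spread between these libraries, which may be technical.

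Libraries held 5931381 to 11142744 counts and 16393 to 18392 genes with a count. The pluripotency factor Pou5f1 had group means between 634 and 941 CPM, where CPM are counts scaled to a common library total, so the defining marker of the labelled cell type was present in every group. The naive factor Nanog went from 664 CPM at 0 h to 27.8 CPM at 40 h in 2i/LIF, and for serum/LIF+2i from 800 to 15.5 CPM. The 8 pluripotency markers summed to 2892 to 2973 CPM at 0 h in 2i/LIF libraries and to 3270 to 3328 CPM in serum/LIF+2i libraries. At 40 h the sums were 1345 to 1391 and 1248 to 1297 CPM. The list was Pou5f1, Sox2, Nanog, Zfp42, Esrrb, Otx2, Fgf5 and Utf1, and its sum does not stand for each marker. In serum/LIF+2i 1 of the 8 had no counts at 0 h, while 0 of the 8 lacked counts at 40 h, so not every marker fell. Reads on 4 ribosomal RNA genes made up 0.468% to 1.77% of counts, with the highest share in the first serum/LIF+2i library at 24 h.

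In the Notch pathway, a ligand on one cell binds a receptor on its neighbour, and the receptor is then cut by an ADAM protease and by gamma-secretase. The freed intracellular part enters the nucleus, joins the DNA-binding protein Rbpj and a Mastermind coactivator, and switches on repressors of the Hes and Hey families. In mouse embryonic stem cells the pathway is known for a role in the choice of fate during differentiation, above all towards neural cells, and in the embryo Dll1 is known from presomitic mesoderm and neural progenitors.

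Promoter sequences are shown for Dll1, the gene that defined the set, and for Notch3 and Notch4, the receptors with the largest rise and the largest fall in RNA at 40 h. RefSeq promoter windows of assembly GRCm38.p6 were matched for 8 of the 10 members, which gave 9 windows of 250 bases upstream of a start site, with 2 for Dll1. Hes1 and Hey1 had no match. The stretches below lie upstream of protein-coding exons and read 5′ to 3′ in the sense of the gene, with capitals marking matches to the E-box CANNTG, a site for bHLH factors, or the N-box CACNAG, a site known for Hes repressors. They are chr17:15376933-15377182 (minus strand) for Dll1, chr17:32166891-32167140 (minus strand) for Notch3 and chr17:34564045-34564267 (plus strand) for Notch4. The Dll1 stretch also lies in an exon of A930024N18Rik, a noncoding RNA on the other strand.
Dll1: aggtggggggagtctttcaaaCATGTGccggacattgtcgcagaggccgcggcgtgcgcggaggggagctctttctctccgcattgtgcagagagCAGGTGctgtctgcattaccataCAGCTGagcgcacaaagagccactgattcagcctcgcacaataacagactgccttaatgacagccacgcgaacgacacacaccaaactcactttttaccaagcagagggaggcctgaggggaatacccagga
Notch3: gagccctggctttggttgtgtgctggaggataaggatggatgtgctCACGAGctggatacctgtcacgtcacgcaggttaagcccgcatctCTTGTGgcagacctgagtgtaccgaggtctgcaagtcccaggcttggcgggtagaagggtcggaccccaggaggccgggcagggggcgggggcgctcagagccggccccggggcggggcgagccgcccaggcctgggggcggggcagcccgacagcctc
Notch4: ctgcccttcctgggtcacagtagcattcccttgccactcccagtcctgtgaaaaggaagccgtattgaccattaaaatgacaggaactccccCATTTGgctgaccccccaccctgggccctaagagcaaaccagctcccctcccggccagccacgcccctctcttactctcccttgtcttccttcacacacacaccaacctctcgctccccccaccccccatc

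The Dll1 stretch held 3 E-boxes, which began 229, 155 and 132 bases upstream of the start, while Notch3 held 2 N-boxes at 204 and 159 bases and Notch4 1 E-box at 158 bases. The remaining Dll1 window held 1 E-box, Dll3 held 2 and Jag1 1, and Notch1 and Notch2 each held 1 N-box. Among 32851 RefSeq windows of that length, 66.2% held an E-box and 36.7% an N-box, both strands searched. The Rbpj core TGGGAA, found in 21.6% of all windows, was in 0 of the 9, and so was the TCF/LEF core CTTTGA, found in 13.8%. No match overlapped another motif. A match is a description of letters, and its absence speaks only for these windows.

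By 40 h after leaving 2i/LIF, the ligands Dll3 and Jag2 and the receptors Notch2 and Notch3 had risen, and the ligand Jag1, the receptors Notch1 and Notch4 and the target Hes1 had fallen. The same 8 genes were called in the same directions from serum/LIF+2i, where Hey1 was also called lower. The Hey1 call rested on 12 counts against 19 at 0 h and was lost by DESeq2. From 2i/LIF its change was -0.42 on the log2 scale and not called. A gene was called where edgeR's quasi-likelihood F test gave a Benjamini-Hochberg adjusted p under 0.05 over all 14288 genes. From 2i/LIF, 3 of 9 members were called at 12 h, 7 at 24 h and 8 at 40 h, against 44.7%, 58.8% and 68.8% of all genes. At 12 h 1 was higher and 2 were lower, against 21.0% and 23.7% of all genes in those directions, at 24 h 3 and 4, against 29.2% and 29.6%, and at 40 h 4 and 4, against 34.1% and 34.7%. From serum/LIF+2i, 4 were called at 12 h, 8 at 24 h and 9 at 40 h, against 51.2%, 64.4% and 70.5% of all genes. There 1 was higher and 3 were lower at 12 h (25.3% and 25.9% of all genes), 3 and 5 at 24 h (32.4% and 32.0%) and 4 and 5 at 40 h (35.3% and 35.3%). The median absolute change of the 9 at 40 h was 1.68 on the log2 scale from 2i/LIF and 1.33 from serum/LIF+2i, against 0.53 and 0.50 over all genes tested, and the signed medians were -0.42 and -0.52 beside 0.01 and 0.00. The exit comparisons of one medium share their 0 h libraries, and nothing is read from these counts, since the set was chosen on that contrast.

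**Figure D1:**
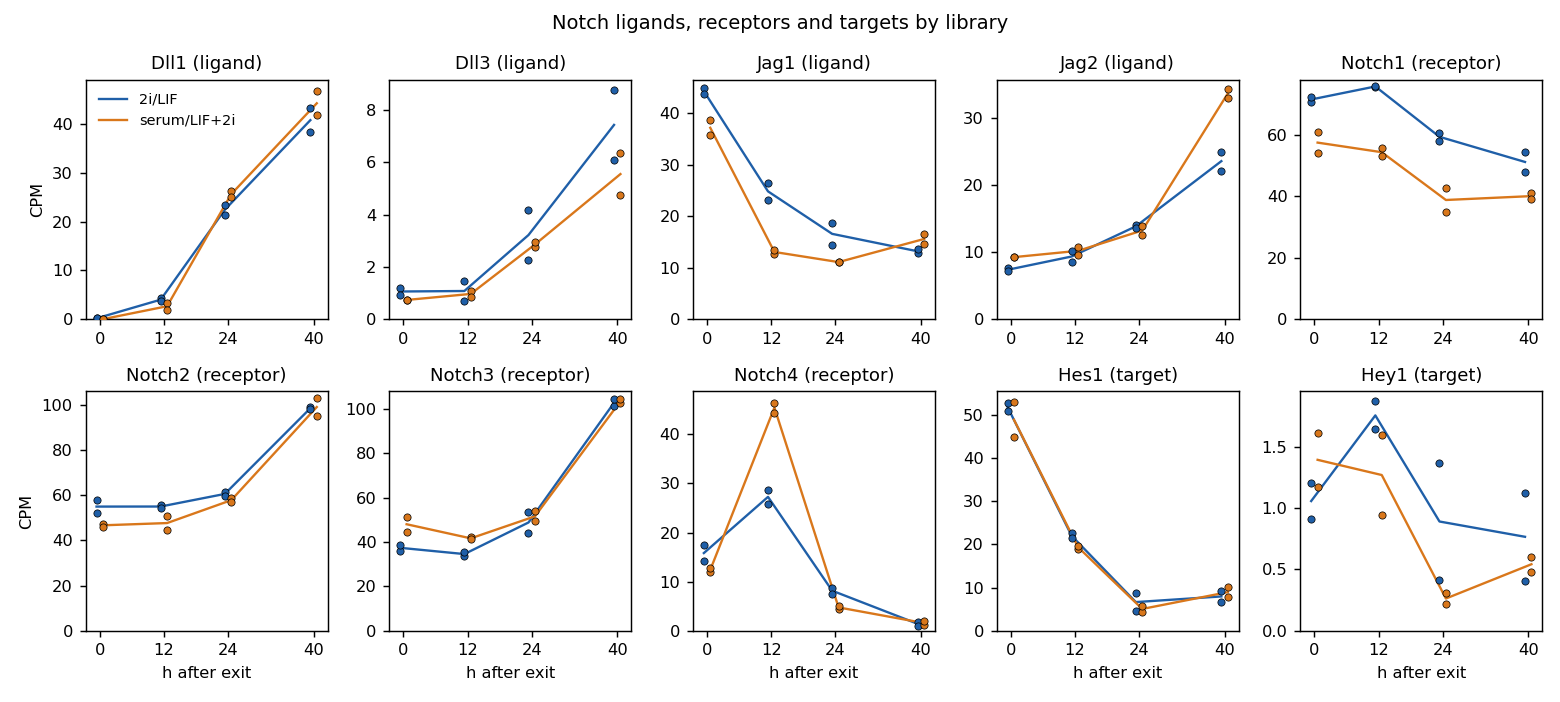
Level of each of the 10 genes (CPM, 1 panel a gene with its own axis) against hours after withdrawal of 2i and LIF. Points are single libraries, set slightly apart by medium, and lines join the means of the 2 libraries, for 2i/LIF and serum/LIF+2i. Dll1 went from at most 0.172 CPM at 0 h to between 38.3 and 46.7 CPM at 40 h, while Hes1 went from between 44.8 and 53.0 CPM to between 6.65 and 10.1 CPM.

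Among the ligands, Dll1 (Delta-like 1, Entrez 13388, chr17:15367354-15376872 on the minus strand of GRCm38) is an activating ligand. After 2i/LIF it had 31 and 28 counts at 12 h, 169 and 141 at 24 h and 346 and 282 at 40 h. After serum/LIF+2i it had 25 and 18 counts, then 238 and 245, then 543 and 432. At each time the libraries lay above all libraries of the time before, in both media. On scaled totals the means were 0.162 ± 0.0144, 3.99 ± 0.357, 22.4 ± 1.44 and 40.8 ± 3.55 CPM in 2i/LIF (SD, n = 2). In serum/LIF+2i they were 0, then 2.65 ± 1.03, 25.6 ± 0.960 and 44.2 ± 3.52 CPM. Against the 2 counts at 0 h in 2i/LIF, the ratio was 24.7 at 12 h (95% exact binomial interval 6.55 to 209), 139 at 24 h (38.2 to 1155) and 253 at 40 h (69.9 to 2097). These intervals cover counting error only. They do not allow for the choice of the set on this rise, so no test is read from them. Against a floor of 3 counts per library, or 0.440 CPM, serum/LIF+2i cells had at least 6.01-fold, 58.2-fold and 100.5-fold higher levels. The fitted steps on the log2 scale were 2.49 ± 0.18 (SE) from 12 to 24 h and 0.86 ± 0.11 from 24 to 40 h after 2i/LIF, and 3.31 ± 0.18 and 0.79 ± 0.09 after serum/LIF+2i. In these bulk libraries a change in how many cells hold an RNA and a change in RNA per cell cannot be told apart, here and for every gene that follows. Exons of Dll1 overlap those of A930024N18Rik. How the counting treated strand is not given in the sources used here, so reads of the 2 cannot be told apart.

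Markers of the tissues in which Dll1 is known were measured in the same libraries. The 8 neural markers summed to 47.9 to 48.4 CPM at 0 h and 88.3 to 95.8 CPM at 40 h in 2i/LIF, and to 31.0 to 36.6 CPM and 124.6 to 125.0 CPM in serum/LIF+2i. Most of this was Tubb3, a neuronal tubulin, with 60.9 and 69.3 CPM at 40 h. The neural plate factor Sox1 moved between 0 and 40 h from 0.658 to 22.6 CPM in 2i/LIF, and for serum/LIF+2i from 4.33 to 47.1 CPM, whereas the proneural factor Neurog2, which acts with Notch in neuron production, stayed at or below 0.205 CPM in group means. The sum over the 8 streak and mesoderm markers moved the other way. In 2i/LIF libraries it was 30.7 and 37.7 CPM at 0 h and 4.13 and 4.34 CPM at 40 h. In serum/LIF+2i libraries it was 20.5 and 28.0 CPM, then 6.28 and 6.37 CPM. Not every marker fell, since in each medium 3 of the 8 had no counts at 0 h and 1 at 40 h. The presomitic factors Tbx6 and Msgn1 had group means of at most 1.13 and 0.0675 CPM. Endoderm markers summed to at most 17.5 CPM and fibroblast markers to at most 23.5 CPM at 40 h. Of the endothelial list, whose sum was mostly Pecam1, the vessel cadherin Cdh5 was at 0 in every library. Markers of 2-cell-like cells summed to 0.880 to 6.20 CPM at 0 h and 16.3 to 38.8 CPM at 40 h. The part of the neural and 2-cell-like markers in the Dll1 result was not tested.

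Dll3 (Delta-like 3, Entrez 13389, chr7:28293553-28302238, minus strand) is known to act inside the cell that makes it rather than on receptors of neighbours. It had 7 and 6 counts at 0 h in 2i/LIF, then 5 and 11, 30 and 15, and 70 and 45 counts at 12, 24 and 40 h. From serum/LIF+2i the libraries had 5 and 5, 8 and 8, 25 and 29, and 74 and 49 counts. No change in Dll3 was called at 12 h in either medium, and counts this low leave a change there undecided. From serum/LIF+2i both 12 h libraries lay above those at 0 h, while from 2i/LIF they overlapped. In both media all libraries at 24 and 40 h lay above those at 0 h. The change at 12 h was 0.04 ± 0.57 (SE; adjusted p = 0.963) on the log2 scale from 2i/LIF and 0.37 ± 0.60 from serum/LIF+2i (adjusted p = 0.643). At 24 h it was 1.62 ± 0.45 (adjusted p = 0.00107) and 1.94 ± 0.46 (adjusted p = 0.000132), and at 40 h 2.82 ± 0.37 (adjusted p = 2.25e-11) and 2.90 ± 0.39 (adjusted p = 9.15e-11), or 7.04-fold and 7.48-fold. Every 0 h library had fewer Dll3 counts than the filter's minimum count of 10, so Dll3 was tested because of its 24 and 40 h libraries. The filter thus favoured a rise, and these p-values do not allow for that. The same limit applies to the step of Dll3 from 12 to 24 h. The calls at 24 and 40 h against 0 h were kept with no filter beyond 1 count. The 2i/LIF call at 24 h was lost without the first 24 h library (1.11, adjusted p = 0.101).

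Jag1 (Jagged 1, Entrez 16449, chr2:137081456-137116644, minus strand), an activating ligand of the Serrate type, fell in both media. In 2i/LIF it had 44.8 and 43.7 CPM at 0 h, 23.1 and 26.4 at 12 h, 14.4 and 18.7 at 24 h and 12.8 and 13.6 at 40 h. Those from serum/LIF+2i had 35.7 and 38.6 CPM, 12.6 and 13.5, 11.0 and 11.1, and 16.5 and 14.6. The decrease was thus stepwise to 40 h in 2i/LIF, while in serum/LIF+2i the lowest level came at 24 h and both 40 h libraries lay above it. At 40 h the change was -1.75 ± 0.12 (SE; adjusted p = 1.70e-26) from 2i/LIF and -1.25 ± 0.11 (adjusted p = 1.48e-19) from serum/LIF+2i on the log2 scale, or 3.36-fold and 2.38-fold lower. The step from 24 to 40 h was 0.49 ± 0.13 in serum/LIF+2i (adjusted p = 0.00110), a call lost without the first 40 h library (0.39, adjusted p = 0.0502). In 2i/LIF the same step was -0.32 (adjusted p = 0.0627), and it passed the threshold without the first 24 h library (-0.49, adjusted p = 0.0188).

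Jag2 (Jagged 2, Entrez 16450, chr12:112907819-112929776, minus strand), its close relative, rose. In 2i/LIF the libraries held 7.58 and 7.13 CPM at 0 h, 10.1 and 8.55 at 12 h, 14.0 and 13.7 at 24 h and 22.1 and 24.97 at 40 h. In serum/LIF+2i they held 9.25 and 9.24 CPM, 10.8 and 9.57, 12.6 and 13.8, and 34.3 and 33.0. The groups were in order of time without overlap in both media. The change at 40 h was 1.68 ± 0.16 (SE; adjusted p = 1.38e-17) and 1.86 ± 0.13 (adjusted p = 4.92e-26) on the log2 scale, or 3.20-fold and 3.64-fold. At 12 h it was 0.35 ± 0.20 (adjusted p = 0.151) and 0.13 (adjusted p = 0.563). The step from 24 to 40 h was 0.76 in 2i/LIF beside 1.35 ± 0.11 for serum/LIF+2i.

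Ligand RNAs can be compared with each other once divided by gene length, as RPKM (CPM per kilobase). At 0 h Jag1 made up 77.4% of the summed ligand RPKM in 2i/LIF beside 72.04% for serum/LIF+2i, with Dll1 at 0.454% and 0%. At 24 h Dll1 held the largest share of the 4, with 45.2% and 53.1%, and Jag1 20.9% and 14.3%. At 40 h Dll1 held 50.5% and 48.5%, Jag2 24.8% and 31.3%, Dll3 14.5% and 9.60%, and Jag1 10.2% and 10.6%. The ligands therefore changed from mostly Jag1 to mostly Dll1 and Jag2 within this sum. The sum itself was 10.4, 8.48, 14.5 and 23.5 RPKM at 0, 12, 24 and 40 h for 2i/LIF and 9.38, 6.10, 14.1 and 26.6 RPKM for serum/LIF+2i, lowest at 12 h in both.

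**Figure D2:**
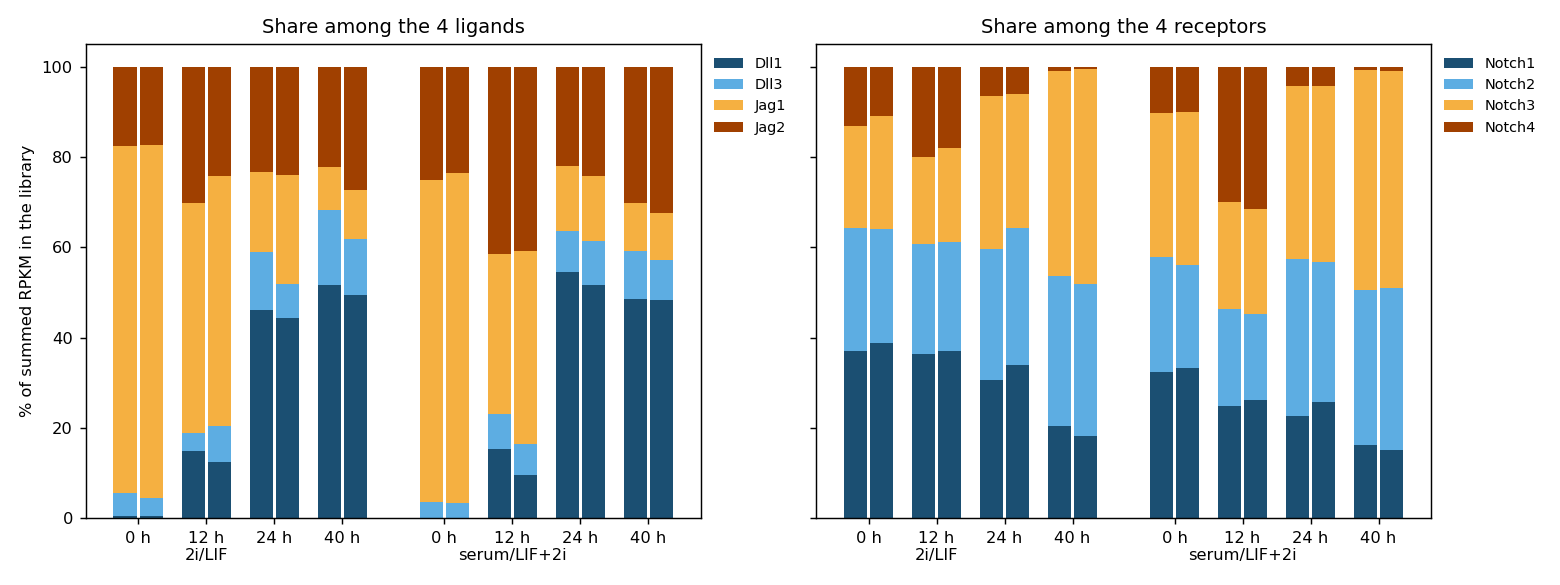
Share of each of the 4 ligands and of the 4 receptors in the summed RPKM of its role (percent), as 1 stacked bar for each library, by hours after withdrawal of 2i and LIF for each medium before exit. Values here are means of the 2 libraries: Jag1 made up 77.4% and 72.04% of ligand RPKM at 0 h and 10.2% and 10.6% at 40 h, and Notch4 reached 19.0% and 30.7% of receptor RPKM at 12 h before ending at 0.764% and 0.879%.

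Among the receptors, Notch1 (Entrez 18128, chr2:26457903-26516663, minus strand) is the widely expressed one whose loss stops development in mid-gestation. In 2i/LIF it had 70.6 and 72.4 CPM at 0 h, 75.6 and 75.9 at 12 h, 58.1 and 60.6 at 24 h and 54.5 and 47.8 at 40 h. The serum/LIF+2i libraries had 54.2 and 60.7 CPM, 52.9 and 55.7, 34.9 and 42.6, and 40.96 and 39.1. In each medium the 24 and 40 h libraries lay below those at 0 h, and every serum/LIF+2i group lay below the 2i/LIF group of its time. The change at 24 h was -0.27 ± 0.08 (SE; adjusted p = 0.00222) and -0.56 ± 0.08 (adjusted p = 2.87e-09) on the log2 scale, and at 40 h -0.48 ± 0.08 (adjusted p = 7.84e-08) and -0.52 ± 0.08 (adjusted p = 1.03e-08), or 1.39-fold and 1.43-fold lower. Exons of Notch1 overlap those of 0610009E02Rik and Gm13568 on the other strand. 0610009E02Rik had at most 6 counts in any library.

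Notch2 (Entrez 18129, chr3:98013527-98150361, plus strand) rose late. It had 57.9 and 52.1 CPM at 0 h in 2i/LIF, 55.7 and 54.2 at 12 h, 61.4 and 59.7 at 24 h and 98.8 and 98.1 at 40 h. From serum/LIF+2i the libraries had 47.4 and 45.9 CPM, 50.8 and 44.6, 58.8 and 56.8, and 94.999 and 103. Only the 40 h libraries were far from the rest, at 0.85 ± 0.07 (SE; adjusted p = 2.18e-20) and 1.08 ± 0.07 (adjusted p = 5.59e-29) above 0 h on the log2 scale, or 1.80-fold and 2.12-fold. At 24 h the change was 0.14 ± 0.08 from 2i/LIF (adjusted p = 0.116, and 0.23 with adjusted p = 0.0388 without the first 0 h library) and, from serum/LIF+2i, 0.31 ± 0.08 (adjusted p = 0.000331). Its exons overlap those of Gm42820, an uncertain transcript on the same strand.

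Notch3 (Entrez 18131, chr17:32120820-32166852, minus strand) is best known from smooth muscle and progenitor cells. It had 36.2 and 38.7 CPM at 0 h in 2i/LIF, 33.7 and 35.5 at 12 h, 53.7 and 44.0 at 24 h and 101 and 104 at 40 h. Those from serum/LIF+2i had 44.6 and 51.5 CPM, 42.1 and 41.3, 49.4 and 53.8, and 103 and 104. The libraries of the 2 media did not overlap at 0 h and did at 40 h. The change at 40 h was 1.46 ± 0.08 (SE; adjusted p = 1.31e-34) and 1.11 ± 0.07 (adjusted p = 2.48e-29) on the log2 scale, or 2.74-fold and 2.15-fold. At 24 h the change was 0.39 ± 0.09 from 2i/LIF (adjusted p = 0.000193, and 0.24 with adjusted p = 0.0746 without the first 24 h library) and 0.10 ± 0.08 from serum/LIF+2i (adjusted p = 0.256). A change of -0.21 ± 0.09 at 12 h from serum/LIF+2i (adjusted p = 0.0378) was lost by DESeq2 (adjusted p = 0.153). In edgeR it was lost with no filter beyond 1 count and with only the groups compared (adjusted p = 0.0817 and 0.0530). Leaving out the second 0 h library (-0.10) or the first or second 12 h library (-0.21 and -0.18) lost it as well. Exons of Notch3 overlap those of Gm17276 on the other strand, which had 2 to 8 counts a library.

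Notch4 (Entrez 18132, chr17:34564268-34588503, plus strand), known mainly from endothelium, rose at 12 h and then fell below its starting level. In 2i/LIF it had 17.4 and 14.3 CPM at 0 h, 28.8 and 25.8 at 12 h, 8.74 and 7.59 at 24 h and 1.88 and 0.950 at 40 h. The serum/LIF+2i libraries had 12.0 and 12.8 CPM, 44.4 and 46.5, 4.53 and 4.99, and 1.20 and 1.93. No 2 groups of one medium overlapped. The rise at 12 h was 0.79 ± 0.14 (SE; adjusted p = 3.13e-07) from 2i/LIF and 1.87 ± 0.12 (adjusted p = 1.15e-27) from serum/LIF+2i on the log2 scale. The next step, to 24 h, was -1.73 ± 0.15 and -3.25 ± 0.14, and the step to 40 h -2.50 ± 0.29 and -1.61 ± 0.28. At 40 h Notch4 was 10.9-fold and 7.94-fold below 0 h (-3.44 ± 0.26, adjusted p = 1.38e-24, and -2.99 ± 0.24, adjusted p = 1.08e-22), with 15 and 7 counts in the 2i/LIF libraries and 14 and 20 in the others. The endothelial marker Pecam1, which pluripotent cells also express, had 168 and 166 CPM at 0 h and 72.8 and 89.2 CPM at 40 h.

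Per gene length, Notch1 held 37.9% of the summed receptor RPKM at 0 h in 2i/LIF beside 32.8% for serum/LIF+2i, where Notch3 held the same share. At 40 h Notch3 held 46.4% and 48.4%, Notch2 33.6% and 35.0%, and Notch1 19.3% and 15.7%. At 12 h in serum/LIF+2i Notch4 held 30.7% and was the receptor with the most RPKM, while in 2i/LIF it held 19.0%. The summed receptor level moved less than its makeup, from 19.9 RPKM at 0 h to 27.9 RPKM at 40 h in 2i/LIF and from 18.4 to 26.9 RPKM in serum/LIF+2i.

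Of the targets, Hes1 (Entrez 15205, chr16:30064384-30067796, plus strand) encodes a transcriptional repressor that Notch induces, and that other signals induce in embryonic stem cells too. It had 51.0 and 52.7 CPM at 0 h in 2i/LIF, 22.6 and 21.4 at 12 h, 8.74 and 4.55 at 24 h and 9.26 and 6.65 at 40 h. From serum/LIF+2i the libraries had 53.0 and 44.8 CPM, 19.0 and 19.7, 4.31 and 5.80, and 7.74 and 10.1. Hes1 was thus lower at every later time while Dll1 was higher, and by 24 h the lowest group had been reached in both media. The change was -1.24 ± 0.12 (SE; adjusted p = 3.93e-16) at 12 h, -2.94 ± 0.15 (adjusted p = 1.81e-31) at 24 h and -2.69 ± 0.14 (adjusted p = 4.30e-31) at 40 h from 2i/LIF. From serum/LIF+2i it was -1.33 ± 0.11 (adjusted p = 5.69e-18), -3.26 ± 0.15 (adjusted p = 1.71e-35) and -2.46 ± 0.13 (adjusted p = 9.08e-32), which at 40 h is 5.49-fold lower beside 6.47-fold in 2i/LIF. From 24 to 40 h Hes1 rose in serum/LIF+2i (0.80 ± 0.20, adjusted p = 0.000340). In 2i/LIF that step was 0.25 ± 0.22 (adjusted p = 0.371), and 0.82 (adjusted p = 0.0191) without the first 24 h library.

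Hey1 (Entrez 15213, chr3:8663359-8667256, minus strand), a repressor of the related Hey family, was near the limit of detection with 0.221 to 1.87 CPM. It had 7 and 6, 12 and 14, 3 and 9, and 9 and 3 counts over the 4 times in 2i/LIF, and no change from 0 h was called there. Its step from 12 to 24 h in 2i/LIF was called only without the second 24 h library (-2.04, adjusted p = 0.0427). Those from serum/LIF+2i had 11 and 8, 7 and 15, 2 and 3, and 7 and 5 counts. Its 24 h libraries were the lowest of that medium, with a ratio to 0 h of 0.190 (95% exact binomial interval 0.0554 to 0.526) and an adjusted p of 0.00209. The ratio at 40 h was 0.392 (0.173 to 0.850), and that call (-1.33 ± 0.57, SE, adjusted p = 0.0325) was lost by DESeq2 (adjusted p = 0.116), without the first 0 h library (-1.07, adjusted p = 0.202) and without the first or second 40 h library (-1.49 and -1.19, adjusted p = 0.0682 and 0.114).

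Between successive times, 7 of 9 members were called from 12 to 24 h in 2i/LIF, against 35.1% of all genes (3 higher and 4 lower, against 17.4% and 17.7%). In serum/LIF+2i 8 were called, against 48.4% (4 higher and 4 lower, against 24.2% and 24.2%). From 24 to 40 h 6 were called in 2i/LIF, against 46.7% (4 higher and 2 lower, against 22.2% and 24.5%), and 7 in serum/LIF+2i, against 50.5% (6 higher and 1 lower, against 25.9% and 24.6%). In the last step Dll3, Jag2, Notch2 and Notch3 rose in both media, by 1.19, 0.76, 0.70 and 1.07 on the log2 scale in 2i/LIF and by 0.96, 1.35, 0.78 and 1.00 in serum/LIF+2i, and Notch4 was the receptor that fell in both. Several of these calls changed when 1 library was left out. From 12 to 24 h in 2i/LIF, Dll3 (1.58) was no longer called without the first 12 h or 24 h library (1.14 and 1.06, adjusted p = 0.0690 and 0.157), nor Jag2 (0.57) without the second 12 h library (0.45, adjusted p = 0.0853). In the same step in serum/LIF+2i, Hey1 (-2.24 ± 0.67) and Notch2 (0.29) were lost without the second 12 h library (-1.77 and 0.19, adjusted p = 0.110 and 0.0897), and Jag2 (0.39) without the second 12 h or 24 h library (adjusted p = 0.215 and 0.168). From 24 to 40 h, Notch1 in 2i/LIF (-0.21) was lost by DESeq2 (adjusted p = 0.162). In edgeR it was lost with library totals only and with a mean of at least 5 CPM (adjusted p = 0.0886 and 0.0641). It was also lost without the first or second 24 h or the second 40 h library (-0.23, -0.17 and -0.11). Dll3 in serum/LIF+2i was lost in that step without the first 40 h library (0.72).

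The media were then compared at each time, as serum/LIF+2i minus 2i/LIF, a contrast that did not choose the set. Notch1 was lower in cells from serum/LIF+2i at all 4 times, with no overlap between libraries. Its difference was -0.32 ± 0.08 (SE; adjusted p = 0.000905) at 0 h, -0.48 ± 0.07 (adjusted p = 8.41e-08) at 12 h, -0.61 ± 0.08 (adjusted p = 9.29e-10) at 24 h and -0.35 ± 0.08 (adjusted p = 0.000274) at 40 h on the log2 scale. Without the first serum/LIF+2i library at 0 h its call was lost (-0.23, adjusted p = 0.0568), as it was at 40 h without the first 2i/LIF library (-0.26, adjusted p = 0.0685). Jag1 was also lower in serum/LIF+2i at 12 h (-0.92 ± 0.13, adjusted p = 3.21e-09) and at 24 h (-0.57 ± 0.15, adjusted p = 0.00109, and -0.37 with adjusted p = 0.139 without the second 2i/LIF library). Notch4 changed sign between times, higher in serum/LIF+2i at 12 h (0.74 ± 0.10, adjusted p = 2.25e-09) and lower at 24 h (-0.78 ± 0.21, adjusted p = 0.00218, and -0.66 with adjusted p = 0.0709 without the first 2i/LIF library). Jag2 was higher in serum/LIF+2i at 40 h (0.52 ± 0.10, adjusted p = 3.01e-05). Hes1 was not called at any time, with differences of -0.09, -0.18, -0.40 ± 0.23 and 0.15 (adjusted p = 0.561, 0.323, 0.186 and 0.596), and passed the threshold at 24 h without the second 2i/LIF library (-0.77, adjusted p = 0.0180). Dll1, given without a test, differed by -0.64 ± 0.29, 0.19 ± 0.12 and 0.12 ± 0.09 at 12, 24 and 40 h.

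Of the 9 members, 4 differed between the media at 0 h, 5 at 12 h, 3 at 24 h and, last, 2 at 40 h, against 33.0%, 30.3%, 31.1% and 27.3% of all genes. Of these, 1, 2, 0 and 1 were higher in serum/LIF+2i, against 14.6%, 14.8%, 14.1% and 13.9% of all genes, and 3, 3, 3 and 1 were lower, against 18.4%, 15.5%, 17.0% and 13.4%. The count at 12 h was above the share over all genes and that at 40 h near it or below, and with 9 genes no difference from all genes is claimed. The median absolute difference of the 9 was 0.33, 0.27, 0.40 and 0.25 on the log2 scale, beside 0.22, 0.20, 0.20 and 0.18 over all genes tested. The smaller differences were the least secure. At 0 h Jag1 (-0.25 ± 0.10, adjusted p = 0.0450) was lost by DESeq2 (adjusted p = 0.212). In edgeR it was lost with library totals only, a mean of at least 5 CPM, or no filter beyond 1 count (adjusted p = 0.0683, 0.0552 and 0.0561). Fitting only the groups compared or leaving out ribosomal RNA genes lost it too (adjusted p = 0.0651 and 0.0639). So did leaving out the first or second 2i/LIF library (-0.22 and -0.27) or the first serum/LIF+2i library (-0.19). Notch2 at 0 h (-0.23 ± 0.09, adjusted p = 0.0269) was lost by DESeq2 (adjusted p = 0.0940) and with only the groups compared (adjusted p = 0.0623). It was also lost without the first 2i/LIF library (-0.14) or the first or second serum/LIF+2i library (-0.25 and -0.21). Notch3, higher in serum/LIF+2i at 0 h (0.36 ± 0.09, adjusted p = 0.00136), was lost without the second serum/LIF+2i library (0.25, adjusted p = 0.0898). At 12 h Notch2 (-0.21 ± 0.08, adjusted p = 0.0280) and Notch3 (0.27 ± 0.09, adjusted p = 0.0172) were lost by DESeq2 (adjusted p = 0.136 and 0.0816). There, Notch2 was also lost without the first or second 2i/LIF or the second serum/LIF+2i library (adjusted p = 0.148, 0.0711 and 0.426), and Notch3 without the first 2i/LIF or the first or second serum/LIF+2i library (adjusted p = 0.141, 0.0738 and 0.0630). At 24 h Hey1 passed the threshold without the first 2i/LIF library (-2.29, adjusted p = 0.0359).

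**Figure D3:**
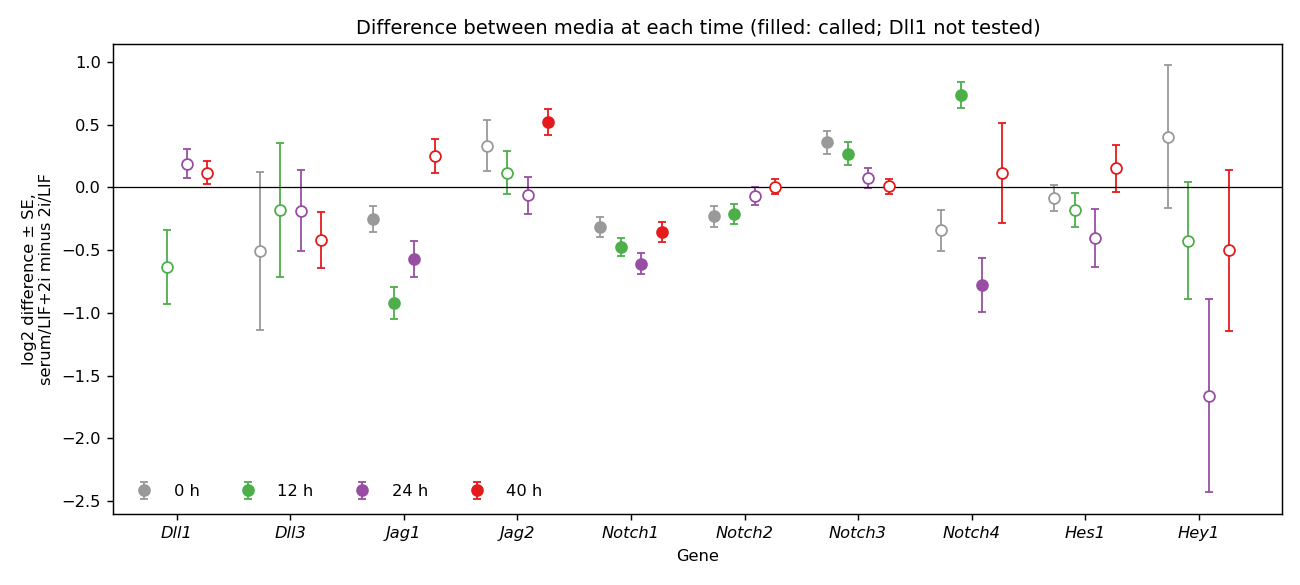
Difference between the media before exit for each of the 10 genes (log2, serum/LIF+2i minus 2i/LIF, ± SE) at 0, 12, 24 and 40 h. Filled points are called at an adjusted p under 0.05 and open points are not; Dll1 is drawn without a test and not at 0 h. Notch1 lies below 0 at all 4 times, from -0.32 to -0.61, and Notch4 goes from 0.74 at 12 h to -0.78 at 24 h.

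Whether the change from 0 h itself differed between the media was tested as an interaction, the change in serum/LIF+2i minus that in 2i/LIF. At 12 h 2 of 9 members were called, against 9.20% of all genes (1 higher and 1 lower, against 4.80% and 4.40%). Notch4 rose by 1.08 ± 0.19 (SE; adjusted p = 9.80e-06) more on the log2 scale in serum/LIF+2i, and Jag1 fell further there, with an interaction of -0.67 ± 0.17 (adjusted p = 0.00270, and 0.0575 by DESeq2). At 24 h edgeR called 0 of 9 (against 20.8% of all genes, 9.77% higher and 11.0% lower) and DESeq2 0, while 3 had an unadjusted p under 0.05 in edgeR (Notch1, Notch3 and Hey1). Notch1 (-0.29) passed the adjusted threshold without the first 0 h or the second 24 h serum/LIF+2i library (adjusted p = 0.0289 and 0.00976), Notch3 without the second 24 h 2i/LIF or the first 0 h serum/LIF+2i library (adjusted p = 0.0238 and 0.0385), and Hey1 without the first 24 h 2i/LIF library (adjusted p = 0.0479). At 40 h 2 were called (1 higher and 1 lower, against 14.8% and 12.8% of all genes, and 27.6% in either direction). Jag1 fell less in serum/LIF+2i (0.50 ± 0.17, adjusted p = 0.0186) and Notch3 rose less there (-0.35 ± 0.11, adjusted p = 0.0120). Notch2 passed the threshold without the first 40 h serum/LIF+2i library (0.29, adjusted p = 0.0474). Both calls at 40 h were lost by DESeq2 (adjusted p = 0.107 and 0.0943). The Jag1 call was also lost without the first 2i/LIF library at 0 or 40 h (adjusted p = 0.0564 and 0.0976) or the first serum/LIF+2i library at 0 or 40 h (0.0712, and 0.143 with an interaction of 0.39), and the Notch3 call without the first 2i/LIF or the second serum/LIF+2i library at 0 h (-0.32 and -0.24, adjusted p = 0.0665 and 0.170).

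The remaining genes of the pathway were taken from a list of 50, of which 44 passed the filter. At 40 h 11 had risen and 16 fallen from 2i/LIF, beside 34.1% and 34.7% of all genes, and 17 were not called. From serum/LIF+2i 18 had risen and 13 fallen, beside 35.3% and 35.3%, and 13 were not called. At 12 h 9 were higher and 10 lower from 2i/LIF (21.0% and 23.7% of all genes), and 13 and 12 from serum/LIF+2i (25.3% and 25.9%). At 24 h the counts were 12 and 14 (29.2% and 29.6%), and 19 and 13 (32.4% and 32.0%). Between the media 3 were higher and 17 lower in serum/LIF+2i at 0 h (14.6% and 18.4% of all genes), 4 and 10 at 12 h (14.8% and 15.5%), 4 and 11 at 24 h (14.1% and 17.0%), and 8 and 6 at 40 h (13.9% and 13.4%). These counts, and those by role that follow, are a description, and no difference from all genes is claimed.

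Rbpj, the DNA-binding partner of the cleaved receptor, rose by 12 h from 94.3 CPM to 276 CPM in 2i/LIF (1.55 ± 0.05 on the log2 scale), and for serum/LIF+2i from 114 to 328 CPM (1.52 ± 0.05). At 40 h it was back at 96.4 CPM in 2i/LIF and below its start at 71.99 CPM in serum/LIF+2i (-0.66 ± 0.06). The coactivator Maml2 fell from 33.6 to 6.71 CPM (-2.33 ± 0.16) and from 14.2 to 4.41 CPM (-1.66 ± 0.18), and the acetyltransferase Ep300 rose in serum/LIF+2i (0.40) beside -0.01 in 2i/LIF. Of 7 genes in this role 1 rose and 2 fell from 2i/LIF at 40 h, and 4 rose and 2 fell from serum/LIF+2i. Of 7 corepressors 2 rose and 3 fell, and 4 rose and 2 fell. The Groucho family member Tle4 was highest between, with 295 and 340 CPM at 12 and 24 h in 2i/LIF beside 184 CPM at 40 h, while Tle3 fell (-0.54 and -0.50) and Ctbp1 rose (0.30 and 0.66). Spen, which holds Rbpj in its repressing state, fell from 2i/LIF (-0.30) and rose from serum/LIF+2i (0.29), with an interaction of 0.59 ± 0.06.

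Of 9 genes for receptor cleavage 0 rose and 4 fell from 2i/LIF at 40 h, and 1 rose and 3 fell from serum/LIF+2i. Furin, which cuts the receptor on its way to the surface, changed by -1.01 ± 0.10 and -0.38 ± 0.10 on the log2 scale, the sheddase Adam10 by -0.97 and -0.58, and the gamma-secretase subunit Ncstn by -0.61 and -0.29. Of 5 glycosylation genes 2 rose and 3 fell, and 2 rose and 2 fell. Pofut1, with a mean of 40.6 CPM, had the largest fall from 2i/LIF among those reaching 5 CPM in a group. Poglut1, which puts O-glucose on the receptor, fell from 198 to 123 CPM (-0.68) and from 229.6 to 127 CPM (-0.86), whereas the Fringe enzyme Mfng, which tunes the response to ligands, rose from 1.94 to 8.04 CPM (2.05 ± 0.30) and from 2.50 to 7.82 CPM (1.64 ± 0.26). Among 4 genes for ligand endocytosis 1 rose and 2 fell, and 2 rose and 2 fell, with Mib2 at -1.03 and -0.47, Neurl1a at -0.96 and -0.54, and Mib1, the main E3 ligase for ligands, at 0.04 (not called) and 0.56.

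Of 9 inhibitors and turnover genes 3 rose and 1 fell in each medium at 40 h. Dtx4, a Deltex ubiquitin ligase, had the largest rise, from 2.09 to 38.6 CPM in 2i/LIF (4.19 ± 0.20 on the log2 scale), and for serum/LIF+2i from 1.91 to 40.1 CPM (4.38 ± 0.19). Dtx3 rose by 0.84 and 1.20. Itch, the most abundant of the role with a mean of 96.5 CPM, fell from 2i/LIF, with an interaction at 40 h of 0.51 ± 0.08. Of the 4 further ligands 2 were tested. Dner fell from 6.94 to 0.840 CPM (-3.02) and from 2.35 to 0.269 CPM (-3.03), and Dlk1, known as a non-canonical ligand that can inhibit Notch, went from 0.0861 to 4.54 CPM and from 0.147 to 7.80 CPM, with 3 counts or fewer in each 0 h library. Of 5 further Hes and Hey genes only Hes6, which is known to oppose Hes1, passed the filter. Its level rose from 9.06 CPM to 63.6 CPM in 2i/LIF (2.82 ± 0.13), and for serum/LIF+2i from 7.04 to 26.6 CPM (1.91 ± 0.15), with an interaction of -0.90 ± 0.23, and was thus the target-family gene that moved opposite to Hes1. The untested Dll4, Dlk2, Hes5, Hes7, Hey2 and Heyl had group means of at most 0.80 CPM. Ncstn and Spen overlap protein-coding genes on the other strand, so their values carry the doubt given for Dll1.

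**Figure D4:**
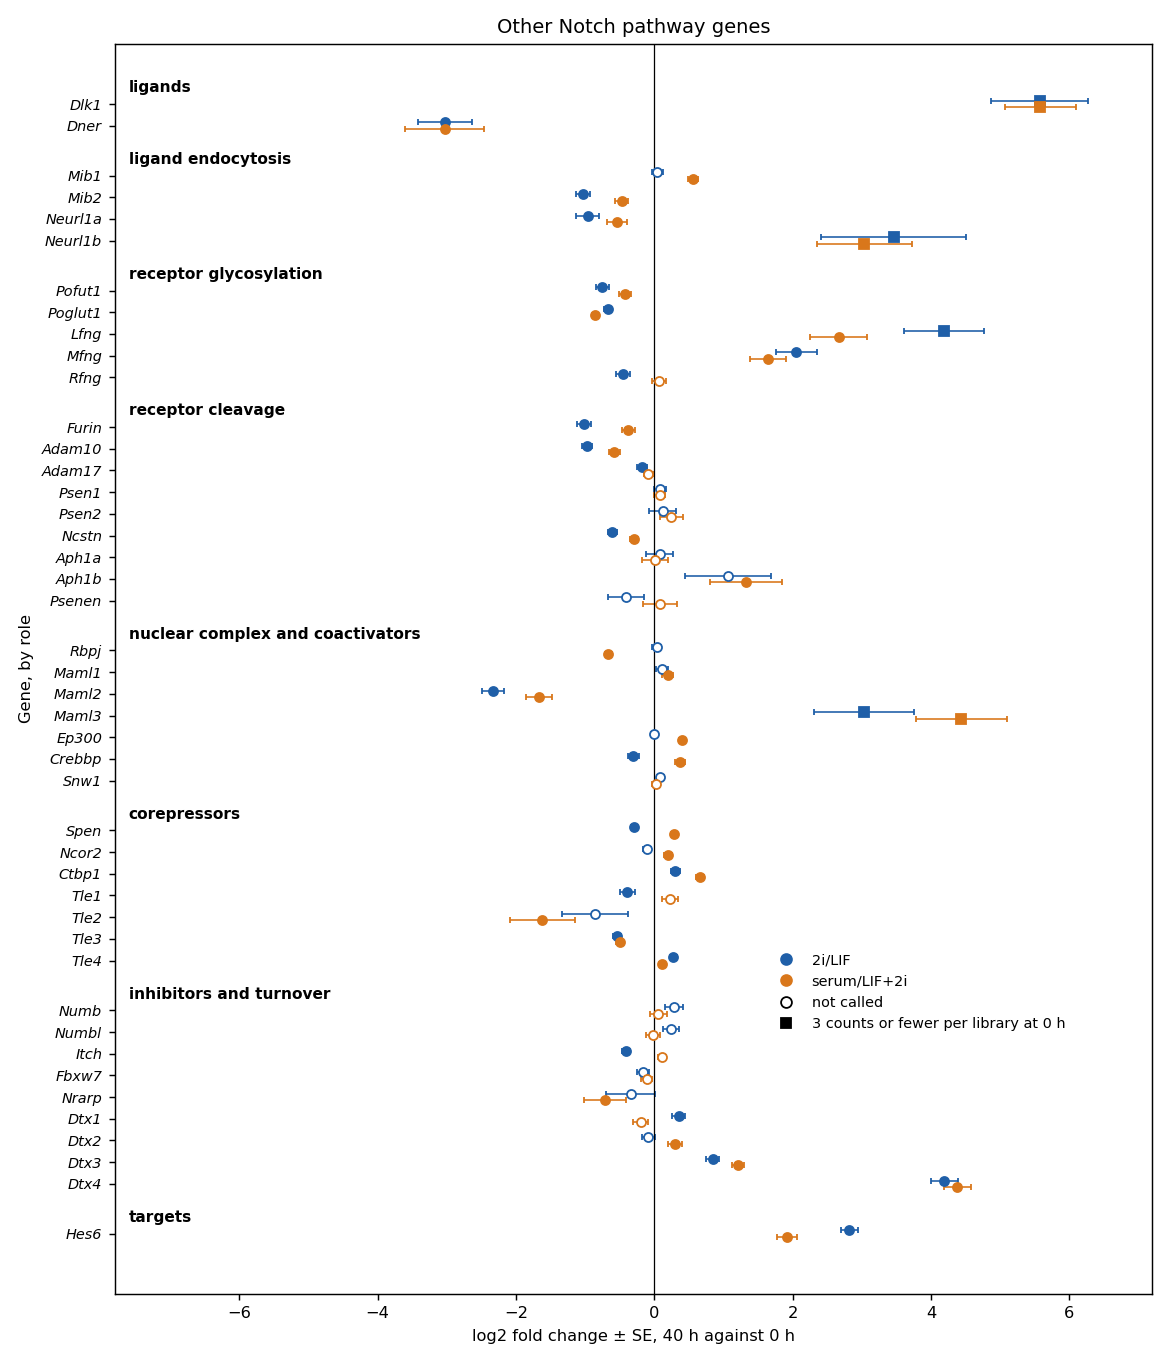
Change at 40 h against 0 h (log2 fold change ± SE) of the 44 tested pathway genes outside the 10, grouped by role, for 2i/LIF and serum/LIF+2i. Filled symbols are called at an adjusted p under 0.05, open symbols are not, and squares have 3 counts or fewer in each 0 h library. Dtx4 lies at 4.19 and 4.38 and Hes6 at 2.82 and 1.91, while Dner lies at -3.02 and -3.03.

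The genes with the pattern most like Dll1 were sought by Pearson's r of log2 CPM over the 8 group means among 11861 genes. They were Otud5 (0.997), Bend3 (0.996), Hsd17b7 (0.996), Isyna1 (0.994) and Kdm4c (0.994). For Hes1 they were Ak4 (0.993), Gjb5 (0.991), Col11a1 (0.989), Phlda3 (0.989) and Srek1ip1 (0.989). By rank alone 42 genes tied with Dll1 at 1 and 7 with Hes1, so 8 groups with 1 main course of change cannot single these genes out. Bend3 had 54.8, 118, 205 and 261 CPM over the 4 times in 2i/LIF, and Ak4 404, 161, 42.6 and 43.7 CPM. Dll1 and Hes1 had an r of -0.95 over the 8 groups, which share libraries and time.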

How the data were processed

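RNA of 16 libraries (TRIzol extraction and a stranded poly(A) kit, per the labels' protocols) was processed by the authors with fastp, STAR and featureCounts on mm10, per the submitters' processing notes, and the deposited values are raw counts per gene. Versions, annotation and strand setting are not given in the sources used here. The 1049 rows with no symbol (0.407% of counts) stayed in the totals and fits. Counts were fitted in edgeR 4.0.16 (R 4.3.3) with TMM scaling, filterByExpr (minimum count 10, minimum total 15), 1 term per group, robust quasi-likelihood F tests, two-sided, 8 residual degrees of freedom and Benjamini-Hochberg adjustment over 14288 genes in each of 17 comparisons. The common biological coefficient of variation was 3.19%. Each SE, that of Dll1 included, was the absolute log2 change divided by the square root of the F statistic. Such an SE can mislead for changes near 0. The 3-count floor was 0.258 to 0.517 CPM. RPKM used the deposited gene lengths. Alternatives were DESeq2 1.42.0, other scalings and filters, a minimum change of 1, a replicate block, the compared groups alone, no ribosomal RNA genes, and each library left out. Named pathway genes came from the up to 3 most abundant of each role and the largest called rise and fall at 40 h. Not all genes under this rule are named. The 10 genes and all lists were chosen with earlier results of these data known. On simulated counts for 14288 genes with 200 changed, the 40 h exit test from 2i/LIF recovered 79.8% of 2-fold and 87.5% of 4-fold changes, and the 40 h interaction test 70.2% and 83.3%. Unchanged genes called numbered 13 and 17. The simulation changed 2i/LIF at 40 h alone, with all other groups alike. In the data 68.8% of genes were called in that exit contrast, so these shares do not give the recovery in the data.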

Additional observations from a re-analysis of the deposited data

Results flagged for a closer look

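The change from 0 h differed between the media by the interaction test in 4 cases (serum/LIF+2i minus 2i/LIF, log2). At 12 h the interaction was 1.08 for Notch4, and Notch4 stayed called without each library in turn and by DESeq2. At 12 h the interaction was -0.67 for Jag1, which DESeq2 did not call. At 40 h it was 0.50 for Jag1 and -0.35 for Notch3, and neither was called by DESeq2. The 12 h serum/LIF+2i group rests on the sample titles. The cause of these differences was not tested.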

How the results depend on the processing

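Over 153 results for single genes and 2057 alternative values, 1919 kept their side of the threshold and 0 reversed a call. Of those 1919, 51 changed sign between values that were not called. Replicate numbers did not pair the libraries: correlations of deviations from group means between same-numbered libraries ran from -0.023 to 0.033 over 28 pairs of groups. With the replicate block all 153 results were kept, and the counts of members called stayed at 3, 7 and 8 for exit from 2i/LIF and 4, 8 and 9 from serum/LIF+2i. Against a minimum log2 change of 1, exit counts were 0 (12 h) and 2 (24 h) from 2i/LIF and 4 (24 h) and 5 (40 h) from serum/LIF+2i, the steps 2 and 1 in 2i/LIF, and 2 and 1 for serum/LIF+2i, and the media differences and the interactions at 12 and 40 h 0. DESeq2 gave 2 and 3 for the media at 0 and 12 h, and 1 and 0 for the interaction at 12 and 40 h. Fitting only the groups compared gave 2 for the media at 0 h. It gave 1 for the interaction at 24 h, as did a mean of at least 5 CPM and leaving out ribosomal RNA genes. Without 1 library at a time the counts ranged over 3 to 3, 5 to 8 and 8 to 8 for exit from 2i/LIF, 3 to 4, 8 to 8 and 8 to 9 from serum/LIF+2i, 6 to 8 and 5 to 7 for steps in 2i/LIF, 5 to 8 and 5 to 7 in serum/LIF+2i, 1 to 3, 3 to 4, 3 to 3 and 1 to 2 for the media, and 2 to 2, 0 to 2 and 0 to 2 for the interaction; the lone library of a group was assumed to vary like the other groups. Each cause was not tested. Depth limited Hey1, Dll3 at 0 and 12 h, and Dll1 at 0 h.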
